A study of Mus musculus with 8 samples.

Results

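The genes of homeostatic astrocytes and neural stem cells were compared between 3xTg and wild-type (WT) mice in the subventricular zone of the lateral ventricle. The set was a list of 35 gene symbols, matched to the symbols of the array annotation. The rule itself uses no measured value, but the list was drawn up with earlier results of these data known. All 35 were on the array, at 51 probes among 32684, and the array held 21363 named genes. There were 23 genes with 1 probe and 12 with several. Where a gene had several, its values here are those of the probe with the highest mean over all samples, called the brightest probe, and the other probes are described at the end.

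Samples were dissected from females of 7 months of age on a C57BL/6J by 129S1/SvImJ background, 4 from 3xTg mice and 4 from WT mice of the control strain. The 3xTg line, used to study Alzheimer's disease, carries among other changes transgenes for human APP and MAPT, both under a Thy1 cassette that is active mainly in neurons. The labels give only the name 3xTg for the genotype, and they do not say whether a sample is 1 animal. Samples were hybridised in pairs on 2-colour arrays, so that array 1 holds replicate 1 of both groups, and so on to array 4. The label field gives Cy5 for every 3xTg sample and Cy3 for every WT sample, so genotype and dye cannot be told apart at any probe. The labelling protocol names only Cy3 primers, so that field is the one source for Cy5 here, while the description fields name 1 scan file for both samples of a pair.

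Astrocytes take up glutamate and GABA from synapses, convert glutamate to glutamine, buffer potassium and water, and are coupled to one another through gap junctions. The neural stem cells of the subventricular zone are themselves astrocyte-like cells that keep much of this program, so most of these genes do not separate one from the other. Several of the genes are also used elsewhere in the tissue: Prom1 by ependymal cells, Vcam1 and Nes by blood vessels, and S100b, Glul and Cd9 by oligodendrocytes. In a tissue sample, fewer cells of a type and less RNA per cell cannot be told apart.

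Levels are log2 normalized intensities as deposited, and each difference is 3xTg minus WT within an array, averaged over 4 arrays and given with its standard error (SE) from limma. Mean levels of the 35 genes ran from 8.28 (Nes) to 15.63 (Slc4a4). The brightest probe of 34 genes lay above 8.66, the 25th percentile over all probes, and that of Nes lay below it. No measure of detection was used here, so a low level does not show that a gene was silent.

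In 3xTg, 0 of the 35 genes passed the test at the brightest probe, and 0 of the 51 probes passed (limma, adjusted p over all 32684 probes, threshold 0.05). Over the brightest probes of all named genes 1.18% passed, and over all probes 1.22% (0.621% higher and 0.603% lower). The smallest adjusted p among the 35 genes was 0.119, for the glutamate transporter Slc1a3. At an unadjusted p under 0.05 there were 9 of 35 genes, beside 18.1% of all named genes. These were 8 higher in 3xTg (Slc1a3, Slc6a11, Aqp4, Atp1b2, S1pr1, Ednrb, Agt and S100b), beside 8.75% of named genes, and 1 lower (Thbs4), beside 9.38%.

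By sign and median, differences in the set were balanced around 0, while their mean was 0.076, beside 0.0006 over all named genes. There were 17 genes above 0 and 18 below, and the median difference was -0.01, beside 0.01 over all named genes. Single differences ran from -0.44 (Thbs4) to 0.55 (Ednrb), with SEs between 0.09 and 0.30. A difference of 1 sign on all 4 arrays was seen in 7 genes, beside 25.5% of named genes: Slc1a3, Slc6a11, Aqp4, S1pr1, Ednrb and S100b were above 0 on each array and Cbs was below, by a margin that rounds to 0.00 on array 4. The size of the differences, taken without sign, had a median of 0.17 in the set and 0.13 over all named genes, and their SD over arrays had a median of 0.30 and 0.22.

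**Figure D1:**
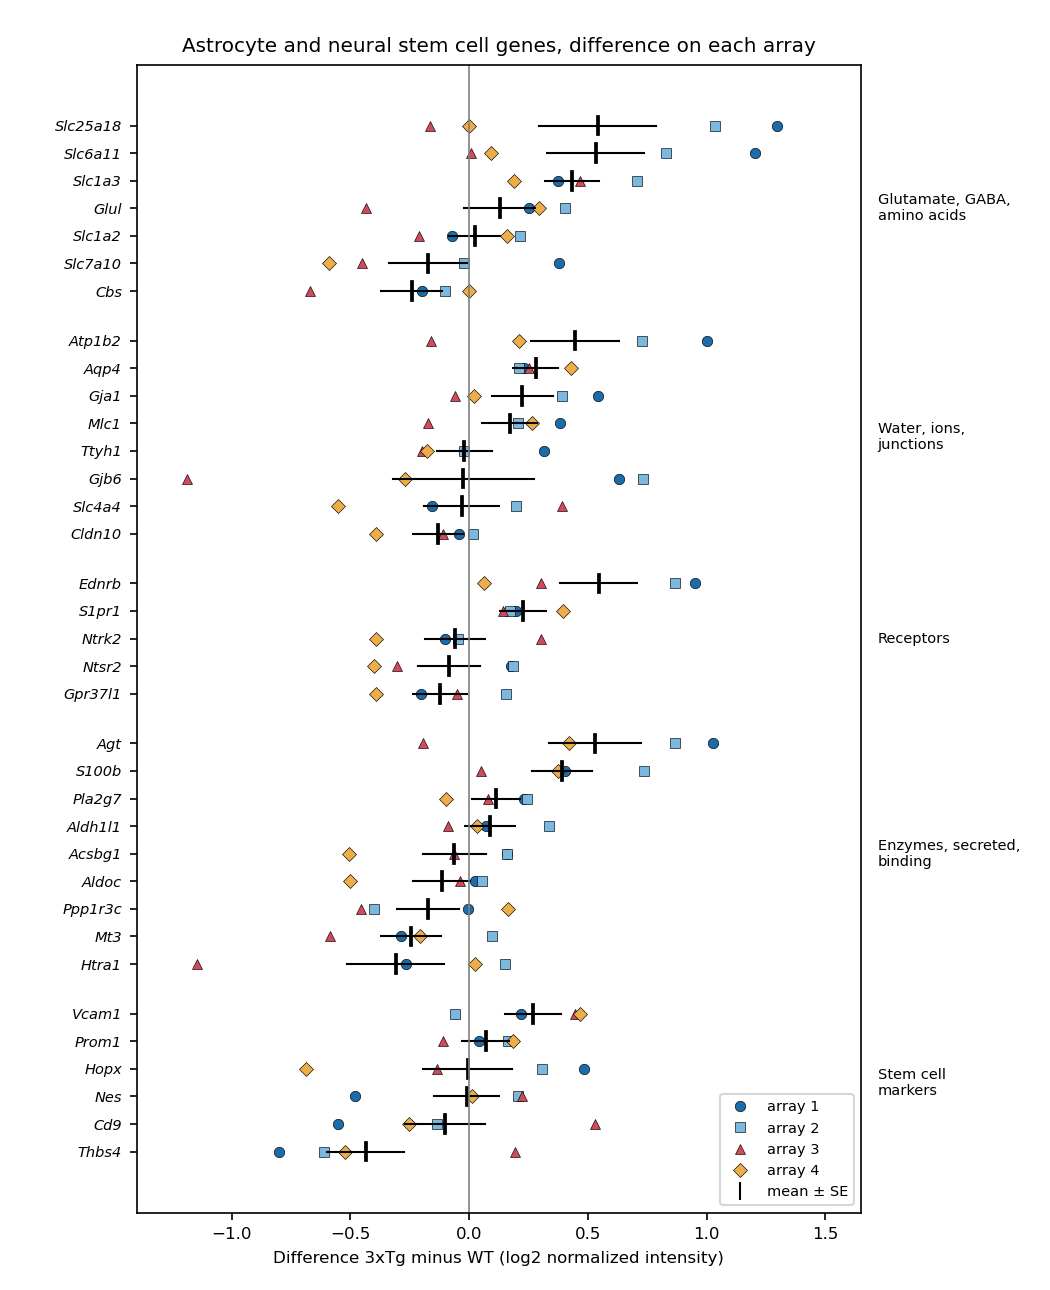
Difference 3xTg minus WT (log2 normalized intensity, x axis) of the 35 genes at the brightest probe, in 5 groups by role, with 1 symbol per array and the mean ± SE as a black bar. Most means lie within 0.3 of 0, arrays 1 and 2 lie to the right of arrays 3 and 4 for genes such as Slc25a18 and Agt, and Slc1a3, Aqp4 and S1pr1 lie above 0 on each array.

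Promoters were examined as a feature that the list of symbols did not use. RefSeq start sites of build GRCm38.p6 gave 36 windows for 31 of the genes, each from 250 bases before to 50 after the start, and Aqp4, Atp1b2, S1pr1 and Vcam1 had none in the table used. The letters searched, on both strands, were TTGGC, a half-site of nuclear factor I (NFI), TTCNNNGAA, the spacing bound by STAT factors, TATAAA, and the SOX cores ACAATG and ACAAAG. Both NFI and STAT factors are known regulators of astrocyte genes. The stretches before the start of Slc1a3, Ednrb and Agt are shown as examples in which such letters occur. They are not the genes of largest difference as a group. Slc25a18 (0.54) and Slc6a11 (0.53) differed by more than Slc1a3 (0.43), and their windows held 0 matches to TTGGC and 0 to TTCNNNGAA. Capitals mark TTGGC and TTCNNNGAA on either strand, and each stretch runs 5′ to 3′ on the minus strand, which is the strand of these genes.
Slc1a3 (chr15:8710808-8711057, minus strand): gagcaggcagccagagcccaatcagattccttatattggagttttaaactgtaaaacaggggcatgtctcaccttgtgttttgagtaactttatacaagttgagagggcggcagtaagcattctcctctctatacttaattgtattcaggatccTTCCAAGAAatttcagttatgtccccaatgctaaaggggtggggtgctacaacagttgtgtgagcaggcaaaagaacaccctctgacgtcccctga
Ednrb (chr14:103843702-103843951, minus strand): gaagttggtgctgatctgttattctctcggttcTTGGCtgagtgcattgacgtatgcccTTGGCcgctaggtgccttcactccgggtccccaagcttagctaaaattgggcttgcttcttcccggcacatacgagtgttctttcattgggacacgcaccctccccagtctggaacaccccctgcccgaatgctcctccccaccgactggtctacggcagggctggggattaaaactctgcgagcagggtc
Agt (chr8:124569707-124569956, minus strand): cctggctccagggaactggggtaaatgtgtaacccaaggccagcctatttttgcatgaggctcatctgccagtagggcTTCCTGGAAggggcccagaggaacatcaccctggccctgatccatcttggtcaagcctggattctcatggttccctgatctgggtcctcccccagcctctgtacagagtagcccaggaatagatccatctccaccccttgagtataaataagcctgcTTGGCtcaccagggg

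The Slc1a3 stretch held 1 match to TTCNNNGAA and 0 to TTGGC, that of Ednrb held 2 to TTGGC and 0 to TTCNNNGAA, and that of Agt held 1 of each. Over the whole windows, TTGGC was found in 17 of 36 (47.2%), beside 46.7% of all 32851 windows. TTCNNNGAA was found in 6 of 36 (16.7%), those of Acsbg1, Agt, Aldoc, Ntsr2, Pla2g7 and Slc1a3, beside 8.3% of all. TATAAA was found in 3 (8.33%, beside 13.6%), for Agt, Slc1a3 and Slc25a18, and a SOX core in 3 (8.33%, beside 28.6%). The median GC content was 56.7% beside 52.7%. These are counts of letters, not of bound sites.

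Genes of glutamate, GABA and amino acid handling were led by Slc1a3, which encodes GLAST, the glutamate transporter of astrocytes and stem cells. Its levels were 15.10, 15.13, 14.99 and 14.82 in 3xTg replicates 1 to 4 and 14.72, 14.42, 14.53 and 14.64 in WT. Every 3xTg sample lay above every WT sample, which no other gene of the set showed in either direction, beside 4.62% of named genes whose groups did not overlap (2.00% with 3xTg higher and 2.62% lower). The means were 15.01 ± 0.14 and 14.58 ± 0.13 (SD, n = 4 each), a difference of 0.43 ± 0.11 (SE, 1.35-fold; limma, adjusted p = 0.119). With the array as a random block Slc1a3 passed (adjusted p = 0.0367, in a range of 0.0367 to 0.87 over 14 alternatives).

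Slc1a2 encodes GLT-1, the main glutamate transporter of mature astrocytes. It stood at 15.14, 15.56, 15.09 and 15.61 in 3xTg and at 15.21, 15.35, 15.30 and 15.45 in WT, with overlapping groups and a difference of 0.02 ± 0.11 (SE; adjusted p = 0.94). Slc1a3 minus Slc1a2 was not tested as a contrast.

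Slc6a11, the GABA transporter GAT-3, measured 13.39, 13.20, 12.35 and 12.05 in 3xTg against 12.18, 12.37, 12.34 and 11.96 in WT. The first 2 of the 3xTg samples were above all others, and the last 2 lay within the range of WT. Its difference was 0.53 ± 0.20 (SE, 1.45-fold, adjusted p = 0.233), and it was 1.20, 0.83, 0.01 and 0.09 on arrays 1 to 4. Slc25a18, a mitochondrial glutamate carrier, followed the same order, with 11.68, 11.60, 10.97 and 10.37 in 3xTg and 10.38, 10.57, 11.13 and 10.37 in WT. Again the 3xTg samples of replicates 1 and 2 were the highest, and the difference of 0.54 ± 0.25 (SE; adjusted p = 0.302) came from 1.30 and 1.04 on arrays 1 and 2, beside -0.17 and 0.00 on arrays 3 and 4.

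The other 3 genes of this group had overlapping samples. Glul, glutamine synthetase, differed by 0.13 ± 0.15 (SE), with 0.25, 0.40 and 0.30 on arrays 1, 2 and 4 and -0.44 on array 3. Cbs, cystathionine beta-synthase, which directs homocysteine into cysteine synthesis, differed by -0.24 ± 0.13, with -0.67 on array 3 and values between -0.20 and 0.00 on the rest. Slc7a10 (Asc-1), a transporter of small neutral amino acids such as serine, differed by -0.17 ± 0.16, from 0.38 on array 1 to -0.59 on array 4. Adjusted p values were 0.693, 0.371 and 0.627.

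Among water, ion and junction proteins the steadiest difference was in Aqp4, the water channel of astrocyte endfeet. It measured 12.65, 12.35, 11.56 and 11.96 in 3xTg and 12.42, 12.14, 11.31 and 11.53 in WT. Levels differed more between arrays than between genotypes, so the groups overlapped, while within each array 3xTg was the higher sample. The within-array differences were 0.23, 0.21, 0.25 and 0.43, with a mean of 0.28 ± 0.09 (SE, 1.21-fold; adjusted p = 0.195), and the SD over arrays of 0.10 was the lowest of the 35 genes. A second Aqp4 probe differed by 0.01 ± 0.09 (adjusted p = 0.968).

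Atp1b2, the beta 2 subunit of the sodium pump, stood at 14.65, 14.62, 13.83 and 14.09 in 3xTg and at 13.65, 13.89, 13.99 and 13.88 in WT. Its 3xTg samples of replicates 1 and 2 were well above the rest, and replicate 3 was below its WT partner. The difference was 0.45 ± 0.19 (SE, 1.36-fold; adjusted p = 0.266), with 1.00, 0.73, -0.16 and 0.21 on the arrays.

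The gap junction proteins of astrocytes are connexin 43 (Gja1) and connexin 30 (Gjb6). Gja1 measured 13.02, 13.17, 12.92 and 12.79 in 3xTg and 12.47, 12.78, 12.98 and 12.77 in WT, a difference of 0.22 ± 0.13 (SE; adjusted p = 0.4). For Gjb6 the levels were 11.75, 11.90, 10.74 and 11.21 in 3xTg and 11.12, 11.17, 11.93 and 11.48 in WT. Gjb6 was higher in 3xTg on arrays 1 and 2 (0.63 and 0.73) and lower on arrays 3 and 4 (-1.19 and -0.27). These opposite values averaged to -0.02 ± 0.30 (SE; adjusted p = 0.981), with the largest SD over arrays of the set, 0.90, and without replicate 3 the mean was 0.36.

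Mlc1, a membrane protein of perivascular endfeet, differed by 0.17 ± 0.12 (SE), with -0.17 on array 3 and 0.21 to 0.38 on the rest. Cldn10, a claudin, differed by -0.13 ± 0.11, and Ttyh1, a membrane protein of stem cells and astrocytes, by -0.02 ± 0.12. Slc4a4, the sodium bicarbonate cotransporter NBCe1, differed by -0.03 ± 0.16, with 1 WT sample at 16.00, the highest value in that sample. Adjusted p values of these 4 lay between 0.486 and 0.951.

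Surface receptors included Ednrb, the endothelin B receptor, which had the largest difference of the set. It measured 14.82, 14.69, 14.19 and 13.77 in 3xTg and 13.87, 13.83, 13.88 and 13.70 in WT. The WT samples lay within 0.2 of each other, and 3 of 4 3xTg samples were above all of them. The means were 14.37 ± 0.49 and 13.82 ± 0.08 (SD, n = 4 each), and the difference was 0.55 ± 0.16 (SE, 1.46-fold; adjusted p = 0.156), falling short of the threshold. On arrays 1 to 4 it was 0.95, 0.87, 0.30 and 0.06.

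S1pr1, a receptor for the lipid sphingosine 1-phosphate, stood at 13.66, 13.78, 13.51 and 13.87 in 3xTg and at 13.47, 13.61, 13.36 and 13.47 in WT. It was higher in 3xTg on each array by 0.14 to 0.40, and by 0.23 ± 0.10 (SE) on average (1.17-fold; adjusted p = 0.271). Ntrk2 (TrkB, the BDNF receptor, whose truncated form astrocytes carry), Ntsr2 (a neurotensin receptor of astrocytes) and Gpr37l1 (an orphan receptor of astrocytes) differed by -0.06 ± 0.13, -0.09 ± 0.13 and -0.12 ± 0.12. On array 4 each of these 3 was about 0.4 lower in 3xTg (-0.39, -0.40 and -0.39).

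Among enzymes and secreted or binding proteins, S100b, the calcium-binding protein S100 beta, measured 12.47, 13.04, 12.03 and 12.76 in 3xTg and 12.07, 12.30, 11.98 and 12.39 in WT. It was the higher sample on each array, by 0.05 on array 3 and 0.37 to 0.74 on the others, with a mean of 0.39 ± 0.13 (SE, 1.31-fold; adjusted p = 0.181). Agt, angiotensinogen, which brain astrocytes secrete, stood at 11.31, 12.27, 10.24 and 11.67 in 3xTg and at 10.28, 11.41, 10.43 and 11.25 in WT. Samples of arrays 2 and 4 were high in both groups apart from the genotype, and the within-array differences were 1.03, 0.87, -0.19 and 0.42. Their mean was 0.53 ± 0.19 (SE, 1.44-fold; adjusted p = 0.219).

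Enzymes used as general astrocyte markers showed small differences. Aldh1l1, a folate enzyme, differed by 0.09 ± 0.11 (SE), and its samples kept to a narrow range, with an SD of 0.10 in 3xTg and 0.12 in WT (n = 4). Aldoc, the brain aldolase, differed by -0.12 ± 0.12, of which -0.50 came from array 4 and between -0.04 and 0.05 from each of the other 3. Acsbg1, an acyl-CoA synthetase, differed by -0.06 ± 0.13 and Pla2g7, a secreted phospholipase that degrades platelet-activating factor, by 0.11 ± 0.10.

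Ppp1r3c, a glycogen-targeting subunit of protein phosphatase 1, differed by -0.17 ± 0.13 (SE), Mt3, the brain metallothionein, by -0.24 ± 0.13, and Htra1, a secreted serine protease, by -0.31 ± 0.20. Array 3 gave the lowest value for each of the 3, at -0.45, -0.58 and -1.15. Without replicate 3 the difference of Htra1 was -0.03. Adjusted p values of these 7 genes lay between 0.352 and 0.847.

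Stem cell markers showed no shared direction. Of 6 genes 2 lay above 0, with a median of -0.01 and array medians of -0.22, 0.05, 0.21 and -0.12. Thbs4, a thrombospondin made by subventricular zone astrocytes and linked to neuroblast migration and injury responses, measured 9.03, 8.75, 9.79 and 9.93 in 3xTg and 9.83, 9.36, 9.60 and 10.45 in WT. The first 2 of the 3xTg samples were the lowest of all 8, and only on array 3 was 3xTg the higher sample. Its difference was -0.44 ± 0.16 (SE, 1.35-fold lower, limma, adjusted p = 0.226), with -0.80, -0.61, 0.19 and -0.52 on the arrays. Leaving out replicate 3, the only array above 0, necessarily made it lower, at -0.64. Its adjusted p there was 0.0535 (limma), the lowest in a range of 0.0535 to 1.0 over 14 alternatives.

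Vcam1, an adhesion molecule that anchors stem cells at the ventricle, stood at 11.08, 10.88, 11.64 and 11.54 in 3xTg and at 10.86, 10.94, 11.19 and 11.08 in WT. Its 3xTg samples of replicates 3 and 4 were above all WT samples, unlike the genes led by replicates 1 and 2, and the difference was 0.27 ± 0.12 (SE; adjusted p = 0.287). Nes, the intermediate filament nestin of stem and progenitor cells, measured 9.11, 7.71, 8.62 and 7.67 in 3xTg and 9.59, 7.50, 8.40 and 7.66 in WT. Arrays differed by up to about 2 log2 units. Within arrays Nes differed by -0.48 on array 1 and by 0.21, 0.22 and 0.01 on arrays 2 to 4. Its mean difference was -0.01 ± 0.14 (SE; adjusted p = 0.983).

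Prom1, which encodes CD133, a membrane protein of stem cell and ependymal cilia, also differed more between arrays than between genotypes. It measured 9.20, 10.24, 9.40 and 10.42 in 3xTg beside 9.16, 10.08, 9.51 and 10.23 in WT. Its difference was 0.07 ± 0.10 (SE; adjusted p = 0.759). Hopx, a small homeodomain protein of quiescent stem cells, differed by -0.01 ± 0.19, with 0.49 and 0.31 on arrays 1 and 2 and -0.13 and -0.69 on arrays 3 and 4. Cd9, a tetraspanin, differed by -0.10 ± 0.17, with 0.53 on array 3 and -0.13 to -0.55 on the others.

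**Figure D2:**
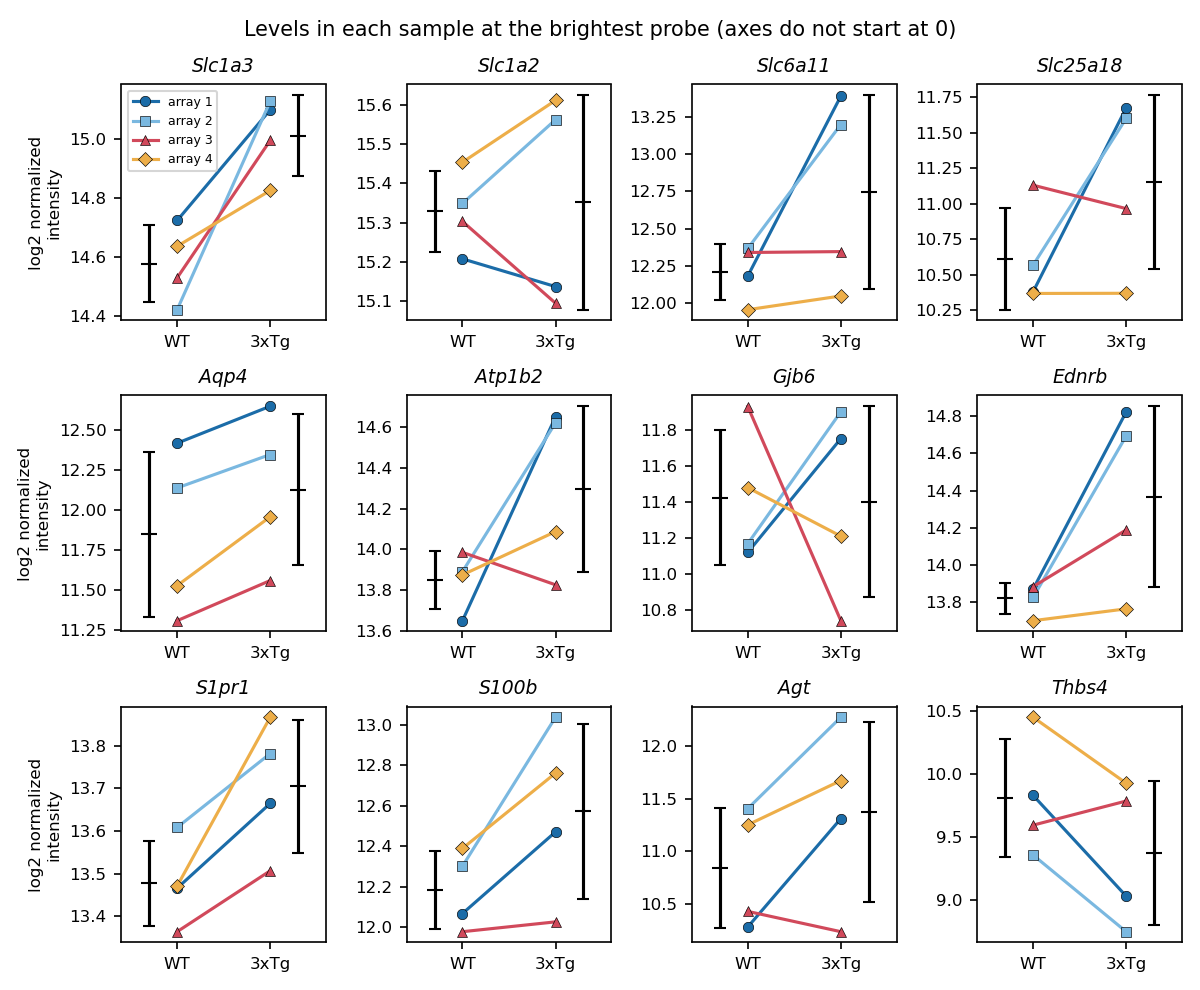
Log2 normalized intensity (y axis, not starting at 0) of 12 of the genes in each sample, with a line joining the WT and 3xTg samples of an array and black bars for the mean ± SD of each group (n = 4). Slc1a3 is the gene whose groups do not overlap, Aqp4 and S1pr1 lie higher in 3xTg along all 4 lines, and the lines of Gjb6 run upward on arrays 1 and 2 and downward on arrays 3 and 4.

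The differences varied between arrays in a way that many of the genes shared. In 17 of 35 genes (48.6%) the 2 highest of the 4 differences, ranked with their sign, were on arrays 1 and 2, beside 18.8% of all named genes. These were Slc6a11, Slc7a10, Slc25a18, Gja1, Gjb6, Cldn10, Atp1b2, Ttyh1, Ntsr2, Ednrb, Aldh1l1, Aldoc, Acsbg1, Agt, Pla2g7, S100b and Hopx. By role they were 3 of 7 genes of transmitter handling, 5 of 8 of water, ions and junctions, 2 of 5 receptors, 6 of 9 enzymes and secreted or binding proteins, and 1 of 6 stem cell markers. Because the ranking keeps the sign, a counted gene can have differences of larger size on arrays 3 and 4. Slc7a10 had -0.45 and -0.59 there, beside 0.38 and -0.02 on arrays 1 and 2. The pattern was noticed in these same arrays, so its count is a description.

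Medians of the set were 0.20 and 0.20 on arrays 1 and 2, -0.09 on array 3 and 0.01 on array 4, beside medians between -0.0023 and 0.03 over all named genes. On array 2, 27 of 35 genes lay above 0 (77.1%, beside 52.4% of named genes), and on array 3, 13 of 35 (37.1%, beside 50.3%). Across the 35 genes the differences of arrays 1 and 2 correlated at r = 0.83, against 0.64 across all named genes. Other pairs of arrays gave r between -0.07 and 0.36 across the 35 genes and between 0.14 and 0.47 across all named genes. Both samples of an array share its hybridisation, genes are not independent of one another, and these values carry no test.

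**Figure D3:**
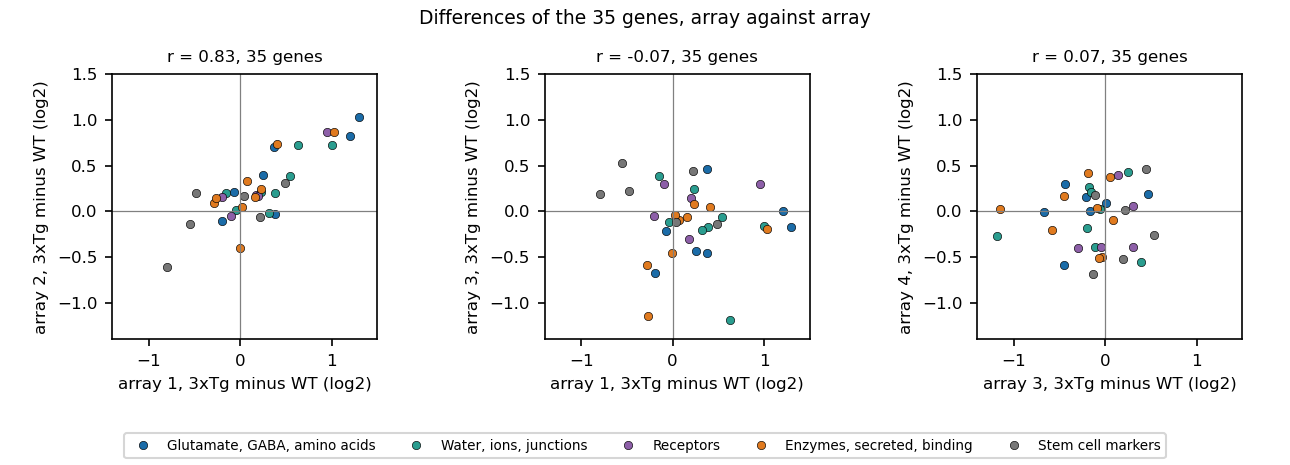
Differences 3xTg minus WT (log2) of the 35 genes on one array against another, coloured by role: array 1 against 2, 1 against 3 and 3 against 4. The points follow a rising line for arrays 1 and 2 (r = 0.83) and no line for the other pairs shown (r = -0.07 and 0.07).

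Markers of neighbouring brain regions differed on the same arrays. In striatal projection neurons 0 of 17 genes lay above 0, with 0 passing. At an unadjusted p under 0.05 (limma) 11 were lower, beside 9.38% of named genes. The list medians were -1.64 and -1.44 on arrays 1 and 2 and 0.22 and -0.34 on arrays 3 and 4. The mean level of that list was 11.79, 11.73, 13.27 and 13.28 in 3xTg, and it ranged from 13.07 to 13.56 in WT. Septal and cholinergic markers went the opposite way, with 9 of 13 genes above 0, 3 of them passing as higher (Isl1, Zic4 and Zic1, which passed under 8, 5 and 5 of the 14 alternatives), and medians of 0.87, 0.93, 0.12 and 0.04. Their mean level was 11.57, 11.46, 10.62 and 10.82 in 3xTg and 10.46 to 10.82 in WT. Below 0 in this list were Chat (-0.33 ± 0.19, SE), Slc5a7 (-0.05 ± 0.13), Gbx2 (-0.07 ± 0.19) and Gbx1 (-0.25 ± 0.14). Chat and Slc5a7 were below 0 on array 2, and Gbx1 on arrays 1 and 2. By list medians, the 3xTg samples of replicates 1 and 2 were thus low in striatal and high in septal and cholinergic markers. These samples were also the highest of all in Slc1a3, Slc6a11, Slc25a18, Gja1, Mlc1, Atp1b2, Ednrb, Pla2g7 and Hopx. In Thbs4 and Cd9 they were the lowest. The lowest mean level of a gene was 7.92 in the striatal list and 8.34 in the septal list. The part of tissue makeup in the differences of the astrocyte genes was not tested.

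With replicates 1 and 2 both left out, the difference of Slc1a3 was 0.33, of Aqp4 0.34, of S1pr1 0.27, of S100b 0.21 and of Vcam1 0.46. In the same fit it was 0.05 for Slc6a11, -0.08 for Slc25a18, 0.03 for Atp1b2, 0.18 for Ednrb and 0.11 for Agt. None of the 35 genes passed in that fit of 2 arrays, beside 0.421% of named genes (limma). At an unadjusted p under 0.05 (limma) there were 4 of 35 genes, beside 6.85% of named genes in the same fit: Vcam1 was higher in 3xTg, and Slc7a10, Gjb6 and Htra1 were lower. Replicates 1 and 2 were singled out in these same data. Smaller values for genes highest on arrays 1 and 2 follow from that choice. The fit is therefore a description of arrays 3 and 4, not a separate test.

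**Figure D4:**
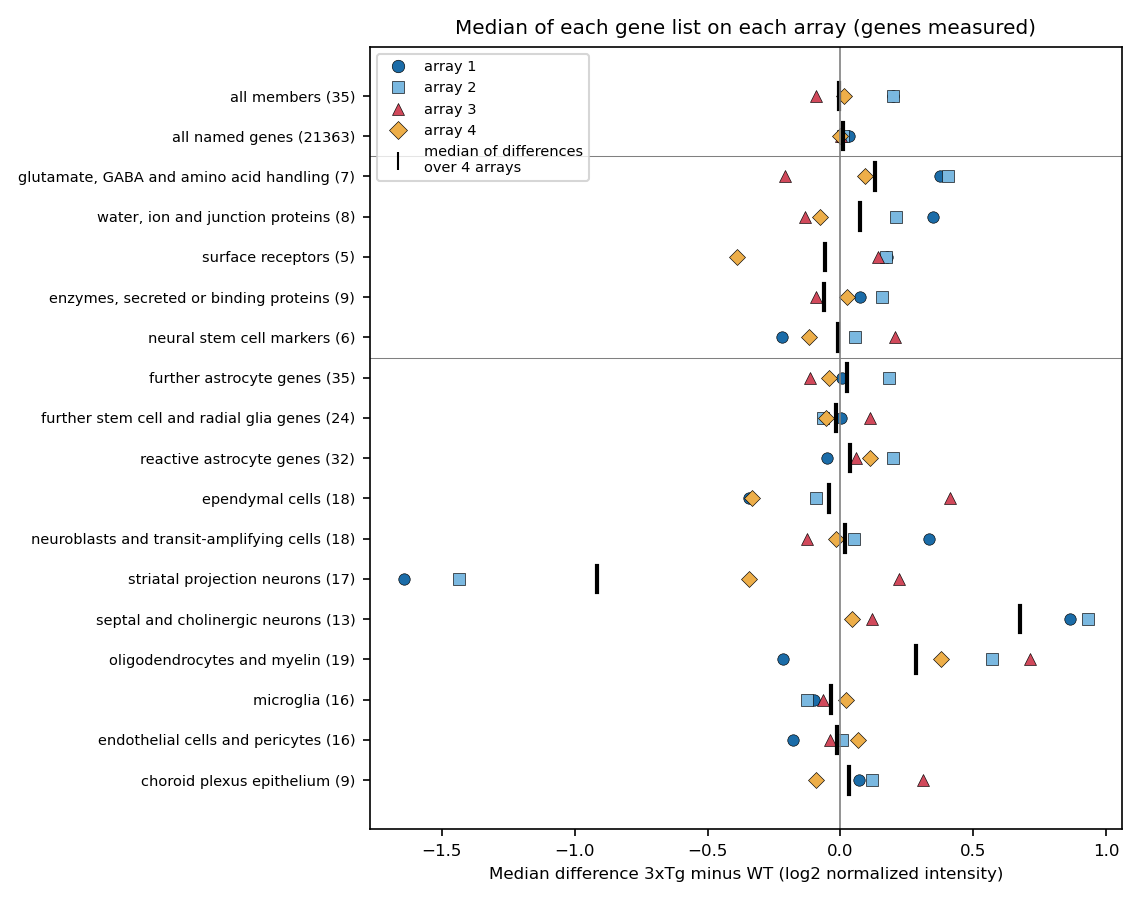
Median difference 3xTg minus WT (log2, x axis) of each gene list on each array (symbols) and over the 4 arrays (black bar), with the number of genes measured in brackets. Astrocyte lists stay within about 0.4 of 0, striatal markers lie at -1.64 and -1.44 on arrays 1 and 2, and septal markers lie at 0.87 and 0.93 on the same arrays.

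Further genes of the same cells were taken from lists of known markers. Of 35 further astrocyte genes measured, 20 lay above 0 and the median was 0.02. At an unadjusted p under 0.05 (limma) 2 were higher and 4 lower, beside 8.75% and 9.38% of all named genes. The lower ones were Dio2 (-0.999 ± 0.221, SE), Slc38a3 (-0.456 ± 0.110), Fam107a (-0.4996 ± 0.156) and Clu (-0.286 ± 0.118). Their adjusted p values lay between 0.0852 and 0.262. Dio2, Slc38a3 and Fam107a were below 0 on each array. In Slc38a3 every 3xTg sample lay below every WT sample. Of the 35 genes 1 passed. This was Gabrg1, a GABA-A receptor subunit of astrocytes and some neurons, which rose in 3xTg: its mean level was 12.90 (SD 0.36, n = 4), beside 11.91 (SD 0.11, n = 4) in the controls. Its differences on arrays 1 to 4 were 1.36, 1.27, 0.58 and 0.72, with a mean of 0.98 ± 0.15 (SE, limma, adjusted p = 0.034). It passed under 8 of the 14 alternatives. It did not pass without replicate 1, 2 or 4 (adjusted p = 0.108, 0.305 and 0.0598), without replicates 1 and 2 (0.351, with a difference of 0.65), in the fit without the array (0.135) or with its probes averaged (0.0635).

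Of 24 further stem cell and radial glia genes 12 lay above 0, the median was -0.02 and 0 passed. At an unadjusted p under 0.05 there were 4 higher and 3 lower (limma), beside 8.75% and 9.38% of all named genes. Gfap, the intermediate filament of astrocytes and of the stem cells of this zone, differed by 0.31 ± 0.10 (SE) and was above 0 on each array (adjusted p = 0.167). Sox2, a transcription factor that maintains stem cells, differed by 0.36 ± 0.12 and was above 0 on arrays 1 to 3 (adjusted p = 0.188). Hes5, a target of Notch signalling, differed by -0.34 ± 0.11 and was below 0 on each array (adjusted p = 0.191). Of 32 reactive astrocyte genes, which include Gfap, 19 lay above 0, with a median of 0.04 and 0 passing. In this list 7 were higher and 2 lower at an unadjusted p under 0.05 (limma), beside the same 8.75% and 9.38%. The pattern of the 2 highest signed differences on arrays 1 and 2 was seen in 13 of 35 further astrocyte genes (37.1%). It was seen in 5 of 24 further stem cell genes (20.8%) and in 5 of 32 reactive genes (15.6%). It was seen in 10 of 13 septal and cholinergic markers (76.9%), a larger share than in the astrocyte set, and in 7 of 18 neuroblast and transit-amplifying genes (38.9%). In the remaining lists it ranged from 0 of 17 striatal genes to 3 of 16 microglial genes (18.8%). The striatal medians were lowest on arrays 1 and 2 (-1.64 and -1.44), which this signed count does not register.

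Of the other cell types, ependymal genes had a median of -0.04 over 18 genes, with -0.34, -0.09, 0.41 and -0.33 on arrays 1 to 4, a pattern unlike that of the astrocyte genes. Oligodendrocyte and myelin genes had a median of 0.28 over 19 genes, with -0.22, 0.57, 0.71 and 0.38 on the arrays, so they were highest where the astrocyte set was lowest. Microglia, endothelial cells with pericytes, choroid plexus, and neuroblasts with transit-amplifying cells had medians between -0.03 and 0.03. None of the genes in these 6 lists passed. At an unadjusted p under 0.05 (limma), beside 18.1% of all named genes, 7 of 19 oligodendrocyte genes were found (6 higher and 1 lower), and 17 of the 19 lay above 0. There were 5 of 16 microglial genes, all lower, and 8 of 18 genes of neuroblasts and transit-amplifying cells, 4 in each direction. There were 1 of 18 ependymal and 2 of 16 endothelial genes, all lower, and 4 of 9 choroid plexus genes, 2 in each direction.

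The 12 genes with several probes gave a check within genes. Probes had opposite signs in 5 of them. For Slc1a2 the 3 probes differed by 0.02 ± 0.11, -0.38 ± 0.13 and 0.25 ± 0.12 (SE; adjusted p = 0.94, 0.209 and 0.333), and the second was below 0 on all 4 arrays. For Prom1 the brightest probe differed by 0.07 ± 0.10 and the other by -0.42 ± 0.13 (SE, limma, adjusted p = 0.157). That other probe was also below 0 on all 4 arrays, though only at -0.01 on array 3. Its mean level was 8.48 in 3xTg and 8.91 in WT, near the 25th percentile over all probes (8.66). In Slc1a2 and Prom1 the probes of 1 gene therefore ranked its samples differently.

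For Slc4a4 both bright probes (mean levels of 15.52 to 15.65 in each group) differed by -0.03 and -0.04, while the dimmest, at 8.66 in 3xTg and 8.25 in WT, differed by 0.41 ± 0.11 (SE; adjusted p = 0.114), the smallest adjusted p of the 51 probes. Ntrk2 gave -0.06, 0.21 and -0.23, and Ttyh1 gave -0.02, 0.11 and 0.23. Probes had 1 sign for the other 7 genes. Among these Vcam1 differed by 0.27 and 0.33 (limma, adjusted p = 0.287 and 0.246), Hopx by -0.01 and -0.09, and Pla2g7 by 0.11 and 0.14. Ednrb differed by 0.55 ± 0.16 and 0.34 ± 0.20 (SE, limma, adjusted p = 0.156 and 0.419). Its second probe was at -0.45 on array 4. Aqp4 differed by 0.28 and 0.01, so its second probe shared the sign but not the size. Which transcripts the probes of a gene bind was not examined here.

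**Figure D5:**
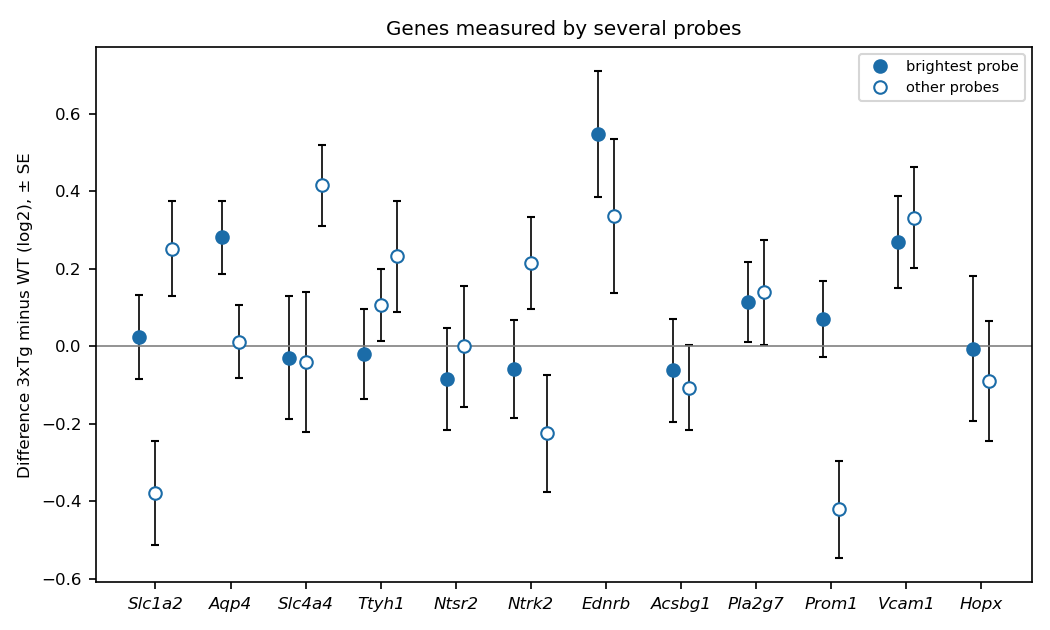
Difference 3xTg minus WT (log2, y axis) with SE for each probe of the 12 genes with several probes, the brightest probe filled. Probes of Slc1a2, Slc4a4, Ttyh1, Ntrk2 and Prom1 fall on both sides of 0, and those of Vcam1 and Ednrb lie above 0.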

How the data were processed

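Total RNA of the subventricular zone was measured on 2-colour arrays in 4 3xTg and 4 WT samples. Values are log2 intensities as deposited, 1 per probe in each sample, normalized by the authors; limma is named without a version per the submitters' processing notes. The sources used here do not state the background correction, normalization method or probe filter, and scanner files were not used. Sample medians lay between 10.12 and 10.15. The number of arrays, 4, limits the precision.

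Probes were named through the platform annotation: 29769 had 1 symbol, 0 several and 2915 none, and 0 symbols changed when matched by Entrez identifier to RefSeq (GRCm38.p6). All probes entered 1 model in limma 3.58.1 (R 4.3.3), with the array as a fixed effect and Benjamini-Hochberg adjustment over 32684 probes; p-values are two-sided. The shared array comes from the labels. As a check, deviations from group means correlated at 0.54 to 0.82 for samples sharing an array and between -0.72 and 0.18 otherwise. Deviations from a group mean sum to 0, which by itself pushes the latter values down when the former are high. The replicates are biological per the labels' design text.

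The 35 genes and all lists were chosen with earlier results of these data known. All 35 are named; of the other lists, genes are named only where a result turns on them. The fit was tested on simulated data in which noise and array effects were independent between probes. That test therefore does not cover differences that many genes share on an array. Alternatives tried were no array term, a random array effect (statmod 1.5.0), median centring, quantile normalisation, loess within arrays (span 0.3), trend and robust moderation, leaving out the dimmest 25% of probes or saturated probes, leaving out arrays, and averaging the probes of a gene.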

Additional observations from a re-analysis of the deposited data

Results flagged for a closer look

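Of 70 groups of 4 samples (35 genes in 2 groups), 2 had a sample far from the other 3 at the brightest probe, where chance flags about 1 in 20 groups. Mlc1 stood at 12.96 in 3xTg replicate 3, with the other 3xTg samples between 13.40 and 13.47. Ttyh1 stood at 14.86 in WT replicate 1, with the other WT samples between 15.33 and 15.38.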

How the results depend on the processing

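Neither the counts of 0 genes past the threshold nor the near-zero median of the 35 genes rested on 1 setting, with 1 exception: with the array as a random replicate block 1 gene (Slc1a3, 0.43) passed as higher, where 551 probes were higher and 758 lower. The median lay between -0.04 and 0.10 over all 14 alternatives. The count of all probes depended on the setting: 47 higher and 31 lower with no replicate block, 132 and 115 after quantile normalisation, 405 and 500 with trend and robust moderation, 351 and 411 without probes at the highest value, 119 and 128 with the probes of a gene averaged, and 101 and 60 without replicates 1 and 2. Leaving out each replicate in turn gave 12 to 185 higher and 19 to 229 lower, with the lowest count without replicate 2 (12 and 19), and 74 and 57 without replicate 1. The fit with no replicate block changed no call among the 35 genes. The cause of these changes was not tested.

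In 18 of the 35 genes the difference kept its sign under all 14 alternatives. Leaving out 1 replicate turned the sign for Slc1a2 (-0.041 to 0.10), Gjb6 (-0.28 to 0.36), Slc4a4 (-0.17 to 0.14, and -0.24 to 0.16 at its second probe), Ttyh1 (-0.13 to 0.039), Ntsr2 (-0.17 to 0.019, and -0.16 to 0.16 at its other probe), Ntrk2 (-0.18 to 0.052), Aldoc (-0.17 to 0.013), Acsbg1 (-0.14 to 0.085), Nes (-0.087 to 0.15), Hopx (-0.17 to 0.22, and -0.23 to 0.030 at its other probe), Cd9 (-0.31 to 0.048) and the other probe of Aqp4 (-0.020 to 0.056). Without replicates 1 and 2 it turned for Slc1a2 (-0.025), Glul (-0.070), Slc25a18 (-0.082), Gja1 (-0.019), Aldh1l1 (-0.028), Pla2g7 (-0.0081, and -0.046 at its other probe), Nes (0.12), Cd9 (0.14), and the other probes of Aqp4 (-0.022) and Ednrb (-0.075). Averaging probes turned Slc1a2 (-0.035), Slc4a4 (0.11), Ttyh1 (0.11) and Prom1 (-0.18), and the other Ntsr2 probe turned on median centring (0.0028) and quantile normalisation (0.0044).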
